A study of Mus musculus with 8 samples.

Results

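The AP-1 family described here comprises 10 genes that encode basic leucine zipper (bZIP) transcription factors, chosen by name from the 21755 protein-coding genes on chromosomes 1–19 and X. The FOS group holds *Fos*, *Fosb*, *Fosl1* and *Fosl2*, the JUN group holds *Jun*, *Junb* and *Jund*, and the remaining members are *Atf3*, *Batf* and *Maff*. The signal of SOX9 was read at each gene in a window of 1 kb on each side of the transcription start site (TSS), over the gene body and in the 20 kb on each side of it, in the mouse genome build GRCm38 (mm10).

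AP-1 factors bind DNA as dimers: FOS proteins pair with JUN proteins, JUN proteins also pair with each other, and ATF, BATF and MAF proteins join either kind or compete with them. Several of the genes are immediate early genes, which cells transcribe without new protein synthesis when kinase cascades are activated by injury, growth factors or cytokines, and in the nervous system AP-1 genes are induced in glia and in damaged neurons. SOX9 is a high mobility group factor of astrocytes and ependymal cells in the adult spinal cord. Its signal at an AP-1 gene describes the chromatin of that gene and not how much the gene was expressed.

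In CUT&Tag, antibodies bring a transposase to a protein on chromatin, and the DNA cut around it is sequenced. Nuclei came from 5-mm segments of spinal cord from WT mice (C57BL/6, entering the study at 8–12 weeks of age), which were either uninjured or had a contusion injury 1 day earlier (1 d.p.i.), each condition being represented by 1 sample of either sex, written M for male and F for female. Each sample used 150000 nuclei, of which 20% received the secondary antibody without the SOX9 antibody and served as controls, so that the 8 libraries form 4 groups of 2. The nuclei were sorted on the DNA stain 7-AAD according to the labels; the study's methods refer to a sort that also used NEUN and SOX10, markers of neurons and oligodendroglia, and do not name a gate for these samples. M and F samples come from different animals. In the sequencing experiments 2 to 4 animals went into the pool of a condition, with as many females as males, but the number behind a single library is not stated, and sex and animal cannot be told apart.

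Depth in fragments was 1869806 for M and 7209462 for F among the SOX9 libraries of uninjured cord, and 2513522 for M and 2381412 for F after injury. Among the controls it was 22707 for M and 46637 for F in uninjured cord, and 52684 for M and 10892 for F after injury, together 0.951 control fragments per 100 SOX9 fragments. All levels are the mean coverage per base of a window over the mean coverage of the library, so that 1 is the genome average and windows of different lengths can be compared. The uninjured F library stands apart from the rest: it is 3.86 times as deep as the shallowest SOX9 library, and its median TSS window over all coding genes with enough fragments to be tested had a level of 7.58, against 4.25 in uninjured M, 5.74 in M at 1 d.p.i. and 4.90 in F at 1 d.p.i. For that reason the changes at TSS windows were also taken over the median TSS window of each library, a scaling chosen after the values were seen, and without this library.

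Changes were tested with limma across all features of a kind, 1 d.p.i. minus uninjured, with Benjamini-Hochberg adjustment over that kind. The p values rest on the spread between the M and F samples, since no other replicates exist. For each feature limma draws that spread towards a trend fitted over all features of its kind. The SE and p of a gene therefore do not measure the spread between M and F at that gene alone. An exact permutation test of 2 against 2 libraries cannot go below p = 0.33. With so few libraries a feature that did not pass is not thereby shown to be unchanged. A feature was tested when the 4 SOX9 libraries together held at least 10 fragments, and *Batf*, with 7 fragments in its TSS window, was the member that was not tested there.

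SOX9 coverage at the TSS of AP-1 genes spanned a wide range, from far above the genome average at *Jund* and *Jun* to near or below it at *Atf3* and *Batf*. *Fos*, *Fosl1* and *Maff* had higher levels in both libraries at 1 d.p.i. than in both uninjured libraries, *Fosb* had lower levels, and the other 6 members overlapped between conditions. Of the 9 members tested, 0 passed an adjusted p of 0.05 with limma (0.012% of the 16706 TSS windows tested did, those of Gm11361 and Ftl1-ps1), and 0 had an unadjusted p under 0.05 (1.81% of all TSS windows). The 3 members with both 1 d.p.i. libraries above the uninjured ones stand beside 7.23% of all TSS windows tested, and the 1 member below stands beside 14.9%. The median log2 change was 0.24 over the 9 members tested and -0.08 over all TSS windows.

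**Figure D1:**
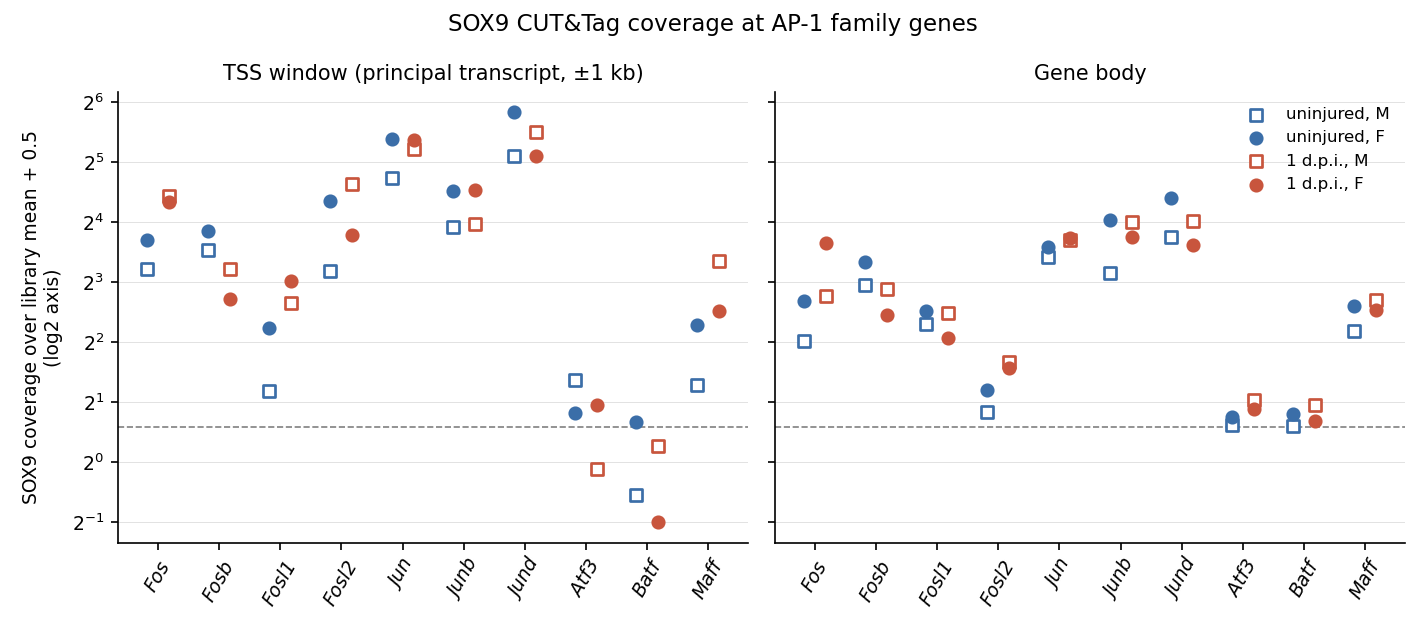
SOX9 coverage over the library mean plus 0.5 (log2 axis) at the TSS window and gene body of the 10 AP-1 genes, with each of the 4 SOX9 libraries as a point; squares mark M, circles mark F, and the dashed line marks the genome average. At the TSS window of *Fos*, both 1 d.p.i. libraries (21.3 and 19.8) lie above both uninjured libraries (8.83 and 12.6), whereas those of *Jun* and *Junb* overlap.

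*Fos* encodes the prototype FOS protein and is among the fastest induced of the immediate early genes. Its TSS window (chr12:85472890-85474889) had a level of 8.83 in M and 12.6 in F of uninjured cord, and of 21.3 in M and 19.8 in F at 1 d.p.i. Both injured libraries were thus above both uninjured ones, and the mean moved from the percentile 80.5 to the percentile 95.6 of all coding genes. These levels rest on 11, 66, 36 and 36 fragments in the same order, with 1 control fragment in the window. The log2 change was 0.93 with a standard error (SE) of 0.69 (adjusted p = 1, limma), and it was 0.68 without uninjured M and 1.17 without uninjured F.

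Over the median TSS window of the library, *Fos* had a level of 2.08 in M and 1.66 in F of uninjured cord, and of 3.70 in M and 4.04 in F at 1 d.p.i. Both injured libraries were therefore above both uninjured ones on this scale too, which sets the median TSS window equal in all libraries by construction. The log2 change was 1.02 with an SE of 0.33 (adjusted p = 0.817, limma). On this scale *Fos*, *Fosl1* and *Maff* had an unadjusted p under 0.05 with higher levels at 1 d.p.i., as did 3.02% of all TSS windows, and 0.0658% of all TSS windows passed the adjusted threshold. *Fos*, *Fosl1*, *Fosl2*, *Jun* and *Maff* had both 1 d.p.i. libraries above the uninjured ones here, beside 16.8% of all TSS windows, and *Fosb* had both below, beside 15.4%.

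*Fosb*, which encodes a FOS protein known for the long-lived splice form ΔFosB in neurons, ran the other way. Its TSS window had a level of 11.2 in M and 13.9 in F of uninjured cord, and of 8.78 in M and 6.09 in F at 1 d.p.i. Both injured libraries were below both uninjured ones, with a log2 change of -0.73 (SE 0.67, adjusted p = 1, limma), which was -0.88 without uninjured M and -0.58 without uninjured F. The gene body of *Fosb* had the same order, with 7.26 and 9.62 in uninjured cord and 6.94 and 4.96 at 1 d.p.i. (log2 change -0.48, SE 0.35), although the M libraries differed little there. With TSS windows of 0.5 kb or 2 kb on each side, *Fosb* no longer had both injured libraries below both uninjured ones.

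*Fosl1* encodes FRA1, a FOS protein without the long activation domain of FOS that is known from migrating and wound-edge cells. The levels at its TSS window were 1.77 (M) and 4.23 (F) in uninjured cord and 5.78 in M and 7.58 in F at 1 d.p.i., from 4, 21, 12 and 17 fragments and 0 control fragments. The 2 conditions did not overlap, and the log2 change was 1.12 (SE 0.66, adjusted p = 1, limma). It was 0.59 without uninjured M and 1.65 without uninjured F, and 1.22 (adjusted p = 0.999) over the median TSS window. The gene body of *Fosl1* overlapped between conditions (4.41 and 5.26, against 5.13 and 3.69).

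*Fosl2* encodes FRA2, which stays in cells longer than FOS. Its TSS window overlapped between conditions, at 8.61 (M) and 20.0 (F) in uninjured cord and 24.4 in M and 13.4 in F at 1 d.p.i. The M and F libraries moved in opposite directions, and the log2 change of 0.44 (SE 0.69) became -0.14 without uninjured M and 1.03 without uninjured F. Over its gene body of 22042 bases, by contrast, the levels were 1.29 and 1.82 in uninjured cord and 2.67 and 2.49 at 1 d.p.i., so that both injured libraries were above both uninjured ones. The log2 change was 0.60 (SE 0.21, adjusted p = 1, limma), with the only unadjusted p under 0.05 among the 10 gene bodies.

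The JUN group had the highest mean level of the 3 groups, and *Jund* and *Jun* had the highest levels of the family in every SOX9 library. *Jund*, a gene expressed in many resting cells, had a TSS level of 34.1 (M) and 56.4 (F) in uninjured cord and of 44.9 in M and 33.9 in F at 1 d.p.i. *Jun*, the target of JUN N-terminal kinases and a gene induced in injured neurons, had 26.1 (M) and 41.2 (F) in uninjured cord and 36.9 in M and 40.9 in F at 1 d.p.i. *Junb*, which often opposes JUN at shared targets, had 14.7 (M) and 22.4 (F) in uninjured cord and 15.1 in M and 22.9 in F at 1 d.p.i. The conditions overlapped at all 3 genes, and the gap between M and F of uninjured cord was wider than that between the condition means.

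The log2 changes of the JUN group were 0.24 for *Jun* (SE 0.76), 0.03 for *Junb* (SE 0.70) and -0.17 for *Jund* (SE 0.78), all with an adjusted p of 1 in limma. Their signs turned when single libraries were left out: *Jun* was at -0.08 and *Junb* at -0.26 without uninjured M, and *Jund* was at 0.19 without uninjured F, while without F at 1 d.p.i. *Junb* was at -0.26 and *Jund* at 0.03. *Junb* was also at -0.01 with scaling by trimmed-mean log ratios. On the same scale the controls were uneven at these promoters. The control levels at *Jun* were 186.5 (M) and 0 (F) in uninjured cord and 0 and 233.3 at 1 d.p.i., from 3 fragments. Those at *Junb* were 0 and 18.75, then 42.16 and 0, also from 3 fragments. *Jund* had control levels of 76.5 (M) and 142.7 (F) in uninjured cord and of 95.1 in M and 0 in F at 1 d.p.i., from 8 fragments beside 493 SOX9 fragments, which is 1.62 per 100. The mean control level of the JUN group was 87.7, 53.8, 45.7 and 77.8 in the same order, from 14 fragments, against SOX9 means of 24.97, 40, 32.3 and 32.6. The group mean of SOX9 was thus below that of the control in all 4 pairs of libraries. The 14 control fragments are too few to set a level, and the control mean in F at 1 d.p.i. rests on 1 fragment, at *Jun*. With starts taken from RefSeq the control means were 62.15, 7.627, 28.06 and 77.76, against SOX9 means of 20.46, 33, 25.91 and 29.17. There SOX9 was above the control in uninjured F. What part of the SOX9 signal depends on the SOX9 antibody was not tested.

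Among the other bZIP members, *Maff* encodes a small MAF protein without an activation domain of its own. Its TSS window had a level of 1.95 (M) and 4.40 (F) in uninjured cord and of 9.78 in M and 5.25 in F at 1 d.p.i., from 3, 30, 21 and 10 fragments and 0 control fragments. The conditions did not overlap, but the F libraries lay close together and most of the difference was in M. The log2 change was 1.15 (SE 0.66, adjusted p = 1, limma), 0.65 without uninjured M and 1.65 without uninjured F, and 1.25 (adjusted p = 0.977) over the median TSS window. *Maff* has 2 further starts in RefSeq: at position 79347520 of chromosome 15 the levels were 9.18 and 7.22 in uninjured cord and 15.8 and 8.82 at 1 d.p.i., and at position 79348402 they were 8.43 and 7.67 and then 10.3 and 8.92. The conditions overlapped at the former and not at the latter, and both held more coverage in uninjured cord than the upstream start.

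*Atf3* encodes an ATF protein that pairs with JUN and is a classical marker of axotomised neurons. The start of its principal transcript (chr1:191217039-191219038 for the window) had levels of 2.09 and 1.27 in uninjured cord and of 0.426 and 1.43 at 1 d.p.i., from 12 fragments, with a log2 change of -0.68 (SE 0.84). RefSeq places the start of *Atf3* 34706 bases away, inside the gene record, and the window there had levels of 1.91 (M) and 6.90 (F) in uninjured cord and of 7.97 in M and 7.81 in F at 1 d.p.i. With that start the sign of the change turned to 0.99 (SE 0.66, adjusted p = 1, limma), with both injured libraries above both uninjured ones, although F differed little between conditions. The RefSeq start was used only after this distance had been seen. RefSeq gave a start for 16449 of the 21755 coding genes, and the others, *Fosl1* among them, kept the principal start. On this set *Fos*, *Fosl1*, *Atf3* and *Maff* were above, beside 7.32% of all TSS windows, and *Fosb* was below, beside 15%.

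*Batf* encodes a bZIP protein best known from T cells and dendritic cells. Its mean SOX9 level at the TSS was the lowest of the family in both conditions, although *Atf3* was lower in M at 1 d.p.i. The levels were 0.184 (M) and 1.09 (F) in uninjured cord and 0.706 in M and 0 in F at 1 d.p.i. With 2, 4, 1 and 0 fragments, no difference was detectable at this depth. The gene body of *Batf* had levels near the genome average in all 4 libraries, from 1.02 to 1.44.

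Ordered by the mean level at the TSS in uninjured cord, the genes ran from *Jund* (45.2 ± 15.8, SD, n = 2) and *Jun* (33.7 ± 10.6) through *Junb* (18.6 ± 5.45), *Fosl2* (14.3 ± 8.04), *Fosb* (12.5 ± 1.94) and *Fos* (10.7 ± 2.65) to *Maff* (3.18 ± 1.73), *Fosl1* (2.999 ± 1.74), *Atf3* (1.68 ± 0.581) and *Batf* (0.636 ± 0.638). At 1 d.p.i. *Fos* (20.5 ± 1.04) stood after *Jund* (39.4 ± 7.82) and *Jun* (38.9 ± 2.88) and before *Junb* (18.98 ± 5.49) and *Fosl2* (18.9 ± 7.79), followed by *Maff* (7.52 ± 3.20), *Fosb* (7.43 ± 1.90), *Fosl1* (6.68 ± 1.27), *Atf3* (0.928 ± 0.710) and *Batf* (0.353 ± 0.499). Neighbours lay apart by more than the sum of their 2 SDs between *Fos* and *Maff* in uninjured cord and, at 1 d.p.i., between *Jun* and *Fos*, *Fosl2* and *Maff*, and *Fosl1* and *Atf3*. All other neighbours in the 2 orders did not. Both orders use the principal starts. In the windows at RefSeq starts *Jund* (20.4 and 35.3, then 25.4 and 23.7) lay below *Jun* (26.1 and 41.2, then 36.9 and 40.9) in all 4 SOX9 libraries. *Fosl2* there had a mean of 10.2 in uninjured cord, below *Fosb* (12.5) and *Fos* (10.7).

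Averaged over the 10 members, the TSS level was 10.95 (M) and 17.7 (F) in uninjured cord and 16.8 in M and 15.1 in F at 1 d.p.i., or 14.4 ± 4.80 against 15.96 ± 1.19 (SD, n = 2), a ratio of 1.11. It was 0.899 without uninjured M and 1.46 without uninjured F. The FOS group had a ratio of 1.32 (10.1 ± 3.59 against 13.4 ± 2.36), with 7.59 in M and 12.7 in F of uninjured cord and 15.04 in M and 11.7 in F at 1 d.p.i., so that only M was higher after injury. The JUN group had a ratio of 0.998 (32.5 ± 10.6 against 32.4 ± 0.182). *Atf3*, *Batf* and *Maff* together had a ratio of 1.60 (1.83 ± 0.597 against 2.93 ± 0.996), with 1.41 in M and 2.25 in F of uninjured cord and 3.64 in M and 2.23 in F at 1 d.p.i., again higher in M alone. Within this group *Maff* had a ratio of 2.37, whereas *Atf3* and *Batf* had 0.554 and 0.555. The median level of all 21755 coding genes was 2.84 and 4.74 in uninjured cord and 3.70 and 3.29 at 1 d.p.i. By the mean level of a condition, 6 of the 10 members lay above the percentile 50 of all coding genes in uninjured cord, with *Maff*, *Fosl1*, *Atf3* and *Batf* below it, and 8 lay above it at 1 d.p.i., with *Atf3* and *Batf* below. The place of *Atf3* depends on its start: at the RefSeq start its ratio was 1.79 and it lay at the percentiles 52.9 and 74.2, which makes 7 and 9 members above. In the controls the family mean was 26.3, 20.1, 16.4 and 23.3, above that of SOX9 in 3 of the 4 pairs of libraries, from 18 fragments in all, which is too few to set a level for single genes. At RefSeq starts the control means were 18.65, 6.258, 10.1 and 23.33, from 11 fragments, against SOX9 means of 9.275, 15.71, 15.07 and 14.52. There the control was below SOX9 in uninjured F and in M at 1 d.p.i. Most lone control fragments started at a rise and ended at a fall of coverage in the same SOX9 library. Their share was 93.6% and 82.4% in uninjured cord and 86.3% and 91.4% at 1 d.p.i. Whether such a rise and fall belong to the same SOX9 fragment cannot be read from coverage. The controls are thus not independent of the SOX9 libraries as a background, and the source of the shared positions was not tested.

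**Figure D2:**
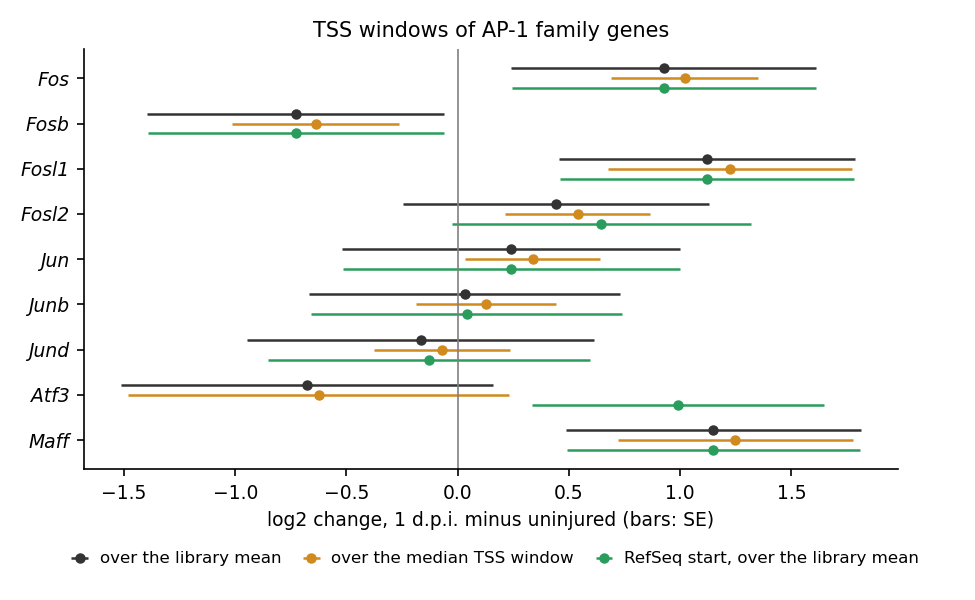
Change of SOX9 coverage at TSS windows, 1 d.p.i. minus uninjured (log2, points, with the SE from limma as bars), for the 9 AP-1 genes tested, over the library mean, over the median TSS window and at RefSeq starts, where *Fosl1* keeps its principal start. *Fos* lies at 0.93 over the library mean and at 1.02 over the median TSS window, and *Atf3* lies at -0.68 at its principal start and at 0.99 at its RefSeq start.

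Gene bodies were tested for all 10 members, and 0 passed an adjusted p of 0.05 with limma, as did 0% of the 19427 bodies tested. The unadjusted p was under 0.05 at *Fosl2* alone, beside 3.77% of all bodies. *Fos*, *Fosl2*, *Jun* and *Atf3* had both 1 d.p.i. libraries above both uninjured ones, beside 13.4% of all bodies, and *Fosb* had both below, beside 15.7%. At *Jun*, a gene of a single exon, the body levels were 10.3 and 11.6 in uninjured cord and 12.6 and 12.8 at 1 d.p.i., a log2 change of 0.21 (SE 0.38). At *Atf3* they were 1.03 and 1.19, and then 1.54 and 1.35, a change of 0.27 (SE 0.17). Neither difference passed the test.

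The body of *Fos* (chr12:85473890-85477273) differed from the other bodies in its controls. Its SOX9 levels were 3.57 and 5.93 in uninjured cord and 6.30 and 12.1 at 1 d.p.i. (log2 change 0.85, SE 0.44, adjusted p = 1, limma). The controls held 14 fragments there against 127 in the SOX9 libraries, or 11 per 100, where the median gene body had 0.782 per 100, which puts *Fos* at the percentile 99.8 of all bodies tested. All 14 covered the last exon (chr12:85475817-85477273), with 0, 6, 7 and 1 fragments in uninjured M, uninjured F, 1 d.p.i. M and 1 d.p.i. F. Over the rest of the body, a region chosen after these fragments had been seen, the controls were at 0 and the SOX9 levels were 1.90 (M) and 7.66 (F) in uninjured cord and 10.2 in M and 12.1 in F at 1 d.p.i. In the last exon itself the SOX9 levels were 5.78, 3.64, 1.21 and 12.1, without an order by condition. The order of the conditions over the *Fos* body was therefore the same without the exon that the controls cover, and the origin of the control fragments was not tested.

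The 20 kb on each side of the members gave 20 flanks, of which 0 passed an adjusted p of 0.05 with limma (0.00924% of the 43281 flanks tested did, those upstream of Apod, Psg16 and Bcl3 and downstream of Sgk1) and 0 had an unadjusted p under 0.05 (2.83%). Both 1 d.p.i. libraries were above both uninjured ones upstream of *Atf3* (3.404 and 2.99, then 4.53 and 3.46) and upstream of *Batf* (0.353 and 0.725, then 0.805 and 1.06), beside 13.5% of all flanks. At 0 members were both below, beside 14.5%. The highest flanks were those upstream of *Jund* (8.96 ± 2.108, SD, n = 2) and *Junb* (8.69 ± 3.42) in uninjured cord, and those upstream of *Junb* (10.3 ± 1.31), *Fos* (8.44 ± 1.55) and *Jund* (8.31 ± 0.308) at 1 d.p.i. Among downstream flanks that of *Fosl1* was highest in both conditions (7.27 ± 3.17 and 6.89 ± 1.48).

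Divided into 1-kb tiles, the 10 loci from 20 kb before to 20 kb after each gene hold 545 tiles. A level of at least 5 in both libraries of a condition was reached by 71 tiles in uninjured cord (13%, beside 1.48% of all tiles of the genome) and by 83 tiles at 1 d.p.i. (15.2%, beside 1.5%). Of these, 52 reached it in both conditions, 31 at 1 d.p.i. alone and 19 in uninjured cord alone. *Jund* and *Junb* had the most high tiles, with 16 and 16 in uninjured cord and 16 and 15 at 1 d.p.i. *Fosl1* had 10 and 12, *Maff* had 10 and 10, *Fosb* had 7 and 9, *Fos* had 6 and 8, *Jun* had 4 and 3, *Fosl2* had 1 and 4, *Atf3* had 1 and 6, and *Batf* had 0 in either condition. Whether the number of high tiles differed between conditions was not tested. The share of the whole genome is not a like background, since the loci lie around coding genes and hold promoters. Enough fragments to be tested were found in 350 of the 545 tiles, against 481114 of the 2633767 tiles of the genome. The share in loci of other coding genes was not taken.

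Of the 545 tiles, 350 had enough fragments to be tested, and 0 passed an adjusted p of 0.05 with limma (0.00977% of the 481114 tiles tested did). The smallest adjusted p was 0.453. An unadjusted p under 0.05 was found at 13 tiles with a higher level at 1 d.p.i. (3.71%, beside 2.1% of all tiles) and at 10 with a lower level (2.86%, beside 2.2%). Both 1 d.p.i. libraries were above both uninjured ones in 63 tiles (18%, beside 14.5%) and below in 53 (15.1%, beside 18%). Of the tiles with a higher level and p under 0.05, 3 were at *Fos* and 3 at *Atf3*, and of those with a lower level 6 were at *Junb* and 3 at *Fosb*.

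The tile with the largest change in these loci covers the first part of the gene body of *Fos* (chr12:85474001-85475000). Its levels were 0 (M) and 10.7 (F) in uninjured cord and 11.3 in M and 16.3 in F at 1 d.p.i., and its log2 change was 2.57 (SE 0.67, adjusted p = 0.453, limma). The size rests on uninjured M, which had 0 fragments there: without that library the change was 0.33, and without uninjured F it was 4.81. In the adjoining tile, which holds the TSS of *Fos* (chr12:85473001-85474000), the levels were 17.4 and 15.6 in uninjured cord and 31.5 and 23.1 at 1 d.p.i., so both injured libraries were above both uninjured ones there too.

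The highest tile of the *Fos* locus outside its promoter lies upstream, at position -18390 from the TSS (chr12:85455001-85456000), and is intergenic. Its levels were 48.8 (M) and 82.3 (F) in uninjured cord and 86.7 in M and 55.7 in F at 1 d.p.i., higher than at the *Fos* promoter in all 4 libraries. M and F moved in opposite directions, and the log2 change was 0.13 (SE 0.87). Coverage in the SOX9 libraries was thus already high at this site in uninjured cord. The controls held 3 fragments in this tile, all in M at 1 d.p.i., at a level of 88.75 beside the SOX9 level of 86.7. What part of the coverage at this site depends on the SOX9 antibody was not tested. A further intergenic site downstream of *Fos* (chr12:85486001-85487000), picked after its values were seen, had levels of 11.95 and 27.99 and then 14.5 and 17.3. The adjoining tile (chr12:85485001-85486000) had 15.03 and 13.49, then 5.815 and 7.317, so both injured libraries were below both uninjured ones. Its log2 change was -1.07 (SE 0.59, adjusted p = 0.996, limma).

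**Figure D3:**
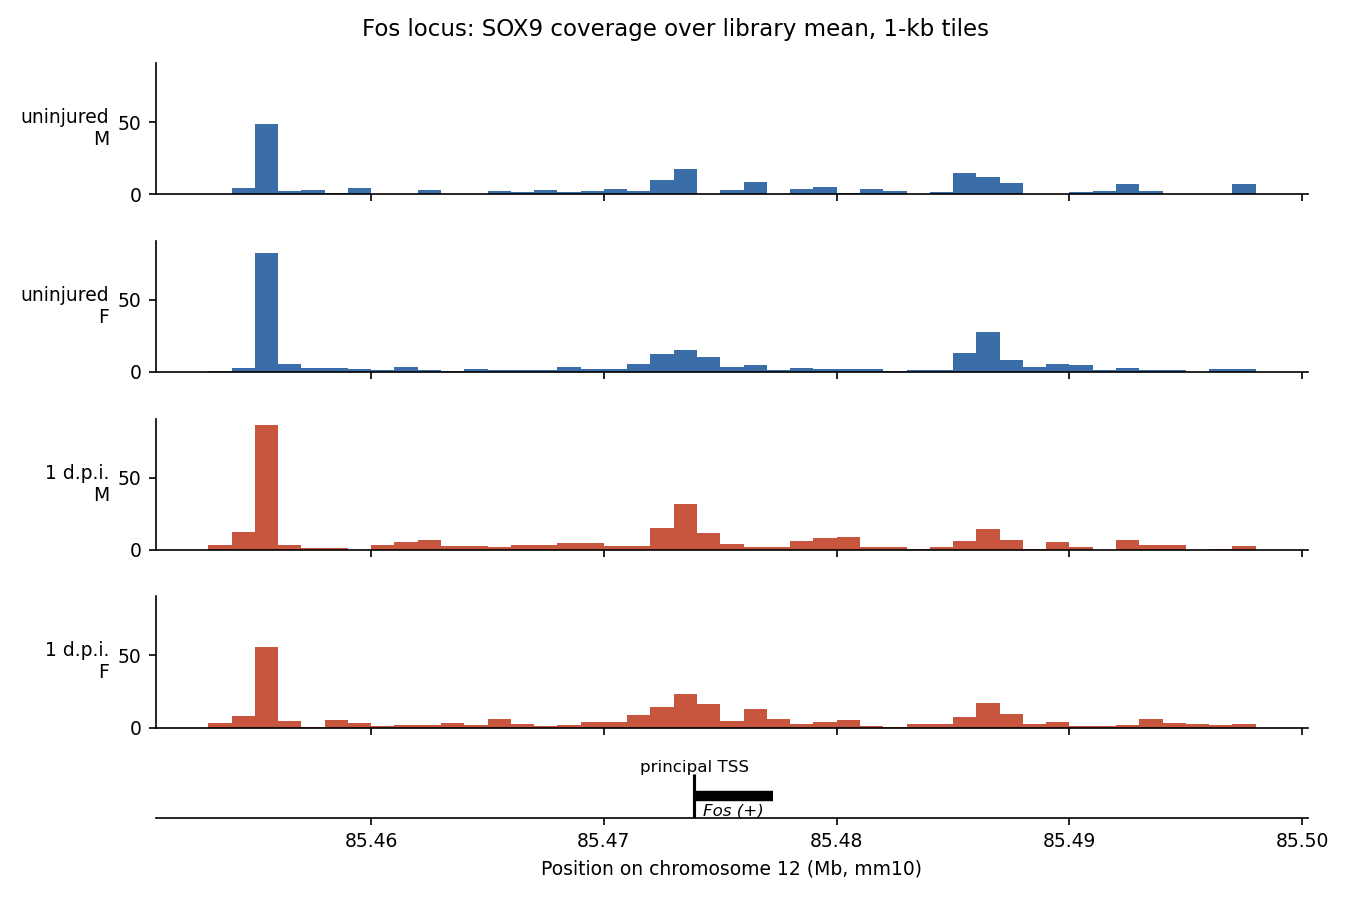
SOX9 coverage over the library mean in 1-kb tiles along the *Fos* locus (chromosome 12, positions in Mb of mm10), with 1 panel for each of the 4 SOX9 libraries on the same scale and the gene drawn below. The upstream tile reaches 48.8, 82.3, 86.7 and 55.7 from the top panel to the bottom panel, and the tile over the first part of the gene body of *Fos* reaches 0, 10.7, 11.3 and 16.3.

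Upstream of the principal start of *Atf3*, 2 adjoining intergenic tiles had low levels in uninjured cord and higher ones in both libraries at 1 d.p.i. The tile at position -1461 from that start (chr1:191219001-191220000) had 0.754 (M) and 1.65 (F) in uninjured cord and 8.85 in M and 8.57 in F at 1 d.p.i., a log2 change of 2.49 (SE 0.75, adjusted p = 0.996, limma). The next tile (chr1:191220001-191221000) had 0.798 and 0.486, and then 6.68 and 5.59, a change of 2.55 (SE 0.89). Left-out libraries kept the first of these changes between 2.097 and 2.88 and the second between 2.35 and 2.75, but they rest on 20 and 19 fragments. The controls held 1 fragment in each tile, in M at 1 d.p.i., at levels of 4.437 and 24.06. The tile at the RefSeq start of *Atf3* (chr1:191183001-191184000) had 1.65 and 9.34, and then 10.9 and 10.8, where uninjured M was the low library. The highest tile of the locus, at the start of the long noncoding RNA D730003I15Rik (chr1:191224001-191225000), was at 22.3 and 20.7 in uninjured cord and at 24.9 and 18.3 at 1 d.p.i.

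**Figure D4:**
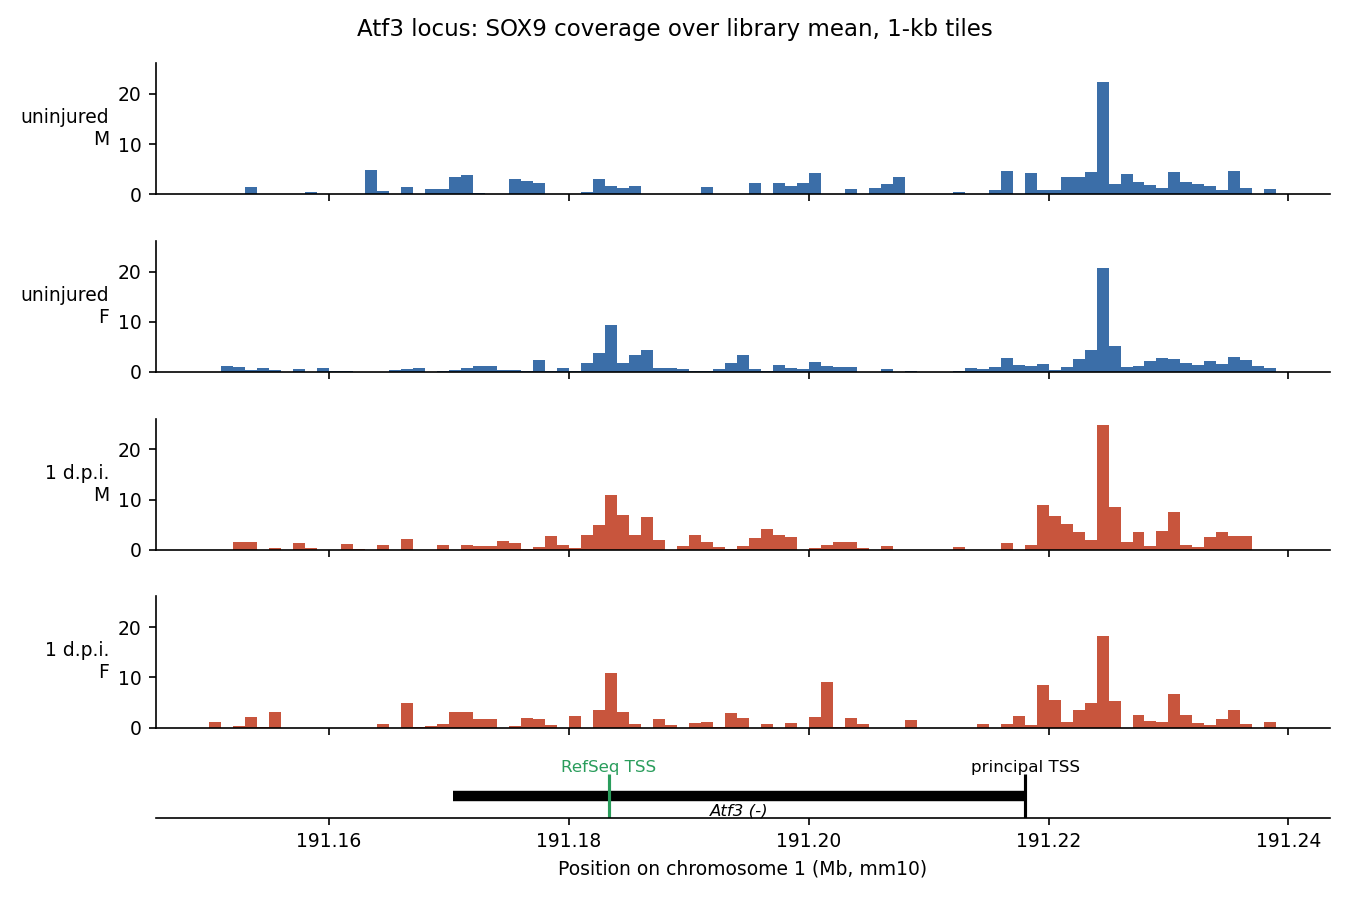
SOX9 coverage over the library mean in 1-kb tiles along the *Atf3* locus (chromosome 1, positions in Mb of mm10), with 1 panel for each of the 4 SOX9 libraries on the same scale, and the gene with its principal and RefSeq starts below. The tile just before the principal start reaches 0.754, 1.65, 8.85 and 8.57 from the top panel to the bottom panel, whereas the tile at the noncoding start reaches 22.3, 20.7, 24.9 and 18.3.

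The other tiles with the largest changes lay at *Jund* and *Junb*. An intergenic tile at position -13449 from *Jund* (chr8:70685001-70686000) had 0 and 5.95, and then 6.40 and 9.85, a log2 change of 2.23 (SE 0.76) that was 0.39 without uninjured M. A tile in an intron of Rtbdn in the *Junb* locus (chr8:84954001-84955000) had 2.88 and 3.33, and then 0.288 and 0, a change of -2.52 (SE 1.26). Both had an adjusted p of 0.996 in limma.

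In several loci the highest tile outside the TSS window was the start of another gene. This held for *Fosl1* (Ccdc85b, 14.4 and 32.3, then 33.2 and 18.5), *Junb* (Hook2, 24.9 and 38.4, then 41.4 and 15.3) and *Maff* (Pla2g6, 16.03 and 24.8, then 15.7 and 13.3). At *Fosl2* it was the start of the unclassified transcript Gm10463 (3.79 and 10.2, then 11.4 and 7.04), at *Jund* a tile over its own exon and an antisense start (20.96 and 21.8, then 15.6 and 15.3), and at *Jun* a tile over its exon (9.23 and 10.5, then 9.61 and 3.74). *Fosb* had an intergenic tile at position -9449 (22.2 and 29.6, then 27.3 and 16.7), and *Batf* had a tile in its own intron (3.75 and 2.87, then 1.40 and 7.95). The conditions overlapped at these tiles except at *Jund* and *Maff*, where both injured libraries were below. Control levels in the same order were 154.2, 62.02, 71.23 and 0 at the Ccdc85b tile and 225.3, 0, 50.91 and 0 at the Hook2 tile, from 3 fragments each. At the *Jund* tile they were 0, 20.95, 132.4 and 0, from 5 fragments. The other tiles of this paragraph held 0 control fragments. Coding neighbours whose principal TSS lies inside a locus were Ccdc85b, Fibp, Ctsw and Efemp2 at *Fosl1*, Rnaseh2a, Gm49661, Prdx2 and Hook2 at *Junb*, Iqcn and Gm3336 at *Jund*, Fam71a at *Atf3* and Pla2g6 at *Maff*. An alternative start of Rtn2 and most of that gene lie inside the *Fosb* locus downstream of *Fosb*. The coverage of these genes cannot be told apart from that of the flanks.

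RefSeq promoter sequences of GRCm38, from 250 bases before to 50 bases after a start, were found for 9 of the 10 members, with 11 promoters in all because *Maff* has 3, and not for *Fosl1*. The observed over expected CpG had a median of 0.601 over 16433 coding promoters, and 6 of the 11 lay above it: 1.03 at *Fosl2*, 0.867 at *Atf3*, 0.775 at *Fos*, 0.752 at the second *Maff* start, 0.735 at *Fosb* and 0.666 at *Junb*. *Jun* (0.594), the third *Maff* start (0.526), *Batf* (0.487), the upstream *Maff* start (0.263) and the RefSeq start of *Jund* (0.184) lay below it. The upstream *Maff* start and *Batf* were also among those with low SOX9 coverage in uninjured cord, whereas *Jund* was high (20.4 and 35.3 in uninjured cord in the window at its RefSeq start). No test relates these properties, and they are given as a description.

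Exact matches to 4 motifs were searched on both strands: the SOX sequence ACAATGG, the AP-1 sequence TGAGTCA, the CRE TGACGTCA and the CArG box, through which serum response factor acts on immediate early genes. None of these sequences contains another. Among coding promoters, taking the first start of each gene, 2.94% held the SOX sequence, 4.58% the AP-1 sequence, 2.44% the CRE and 1.55% the CArG box. Of the 9 members, *Jund* held the SOX sequence, and 0 held any of the other 3. Within 100 bases of the summits of 22063 tiles with a level of at least 5 in all 4 SOX9 libraries, 3.11% held the SOX sequence, 3.83% the AP-1 sequence, 1.08% the CRE and 0.666% the CArG box. The summits of the highest tile outside the TSS window of each of the 10 loci held 0 of the 4. Not all of these tiles reached a level of 5 in every SOX9 library. Higher tiles inside the TSS windows, as at *Jund*, *Jun* and *Fosl2*, were not part of this search. An absent match says only that these exact letters are not in the window.

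The sequences shown are those of selected sites at *Fos*, *Maff* and *Atf3*, from GRCm38, 5′ to 3′, with matches to the 4 motifs in capitals. At the upstream *Fos* tile and at the second *Maff* start the conditions overlapped. The *Fos* promoter (RefSeq, chr12:85473640-85473889, plus strand, upstream of the first exon) belongs to the TSS window with levels of 8.83 and 12.6 in uninjured cord and 21.3 and 19.8 at 1 d.p.i. The upstream *Fos* summit (chr12:85455278-85455478, plus strand, intergenic) is the point of highest coverage in the locus, with a mean level of 147.8 over the 4 SOX9 libraries. Neither of them holds a match.
Fos promoter: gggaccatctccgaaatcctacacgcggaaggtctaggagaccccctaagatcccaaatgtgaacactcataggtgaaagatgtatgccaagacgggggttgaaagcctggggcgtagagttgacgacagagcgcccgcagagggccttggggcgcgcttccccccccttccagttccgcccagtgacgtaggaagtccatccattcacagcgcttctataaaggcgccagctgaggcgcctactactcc
Fos upstream summit: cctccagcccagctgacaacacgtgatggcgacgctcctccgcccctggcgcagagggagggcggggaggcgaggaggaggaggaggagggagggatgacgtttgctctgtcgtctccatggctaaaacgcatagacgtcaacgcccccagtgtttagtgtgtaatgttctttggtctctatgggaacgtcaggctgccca

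The promoter of the second RefSeq start of *Maff* (chr15:79347270-79347519, plus strand, inside the gene record) holds the CRE, and it is the only member promoter with a match to that sequence. The *Atf3* summit (chr1:191219668-191219868, plus strand, intergenic) lies in the tile with levels of 0.754 and 1.65 in uninjured cord and 8.85 and 8.57 at 1 d.p.i., and it holds no match. The gene *Atf3* itself is read from the minus strand.
Maff promoter of the second start: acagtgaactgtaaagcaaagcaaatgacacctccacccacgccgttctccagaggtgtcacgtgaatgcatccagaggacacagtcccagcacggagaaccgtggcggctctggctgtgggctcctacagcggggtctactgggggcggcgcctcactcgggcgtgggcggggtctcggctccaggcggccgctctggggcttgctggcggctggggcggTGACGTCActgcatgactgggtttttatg
Atf3 upstream summit: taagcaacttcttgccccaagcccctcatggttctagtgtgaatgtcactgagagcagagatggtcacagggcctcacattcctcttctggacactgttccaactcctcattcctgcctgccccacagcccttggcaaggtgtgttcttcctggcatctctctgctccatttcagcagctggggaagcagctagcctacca

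bZIP genes whose products pair with AP-1 or share its sites were read from a list of 20 genes, all tested. With limma 0 passed and 0 had an unadjusted p under 0.05, and the median log2 change was -0.07, where that of all TSS windows was -0.08. Both 1 d.p.i. libraries were above in 3 genes and below in 3, beside 7.23% and 14.9% of all TSS windows. The largest positive changes were at *Cebpd* (4.43 and 6.97, then 10.1 and 16.3, log2 1.14, SE 0.66) and *Cebpb* (3.29 and 9.84, then 16.2 and 9.99, log2 1.08, SE 0.66), which encode acute-phase C/EBP factors. The largest negative ones were at *Batf3* (1.54 and 2.92, then 2.09 and 0.434, log2 -0.76, SE 0.79) and *Jdp2* (15.6 and 17.9, then 15.3 and 6.70, log2 -0.69, SE 0.68), which encode relatives of BATF and ATF3. *Ddit3*, a stress-induced C/EBP relative, was highest, at 43.2 and 57.2 in uninjured cord and 46.7 and 42.8 at 1 d.p.i.

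Of 20 kinases and factors that act upstream of AP-1, all tested, 0 passed with limma, 0 had an unadjusted p under 0.05, 0 were above (7.23% of all TSS windows) and 2 below (14.9%), with a median of -0.08. *Srf*, which encodes serum response factor, had levels of 5.92 and 21.9 in uninjured cord and 15.1 and 15.4 at 1 d.p.i. (log2 0.39, SE 0.68), and *Map3k1* had 3.57 and 7.95, then 6.15 and 8.40 (log2 0.39, SE 0.66). The most negative were *Map3k7*, the kinase TAK1 (7.01 and 6.92, then 5.91 and 2.08, log2 -0.88, SE 0.66), and *Elk1*, a partner of serum response factor (8.89 and 17.3, then 13.2 and 4.03, log2 -0.72, SE 0.67). *Dusp1*, a phosphatase that switches the kinases off, had the highest level.

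Of 20 genes known as AP-1 targets, 18 were tested (*Mmp3* and *Mmp13* were not). With limma 0 passed and 0 had an unadjusted p under 0.05, 2 were above (7.23% of all TSS windows) and 2 below (14.9%), and the median was -0.09. *Vim*, which encodes the intermediate filament vimentin, had levels of 2.1 and 3.24 in uninjured cord and 7.40 and 6.84 at 1 d.p.i. (log2 1.29, SE 0.66, adjusted p = 1, limma). *Ccl2*, a chemokine gene, had 1.89 and 1.63, then 3.48 and 4.01 (log2 0.91, SE 0.71), whereas *Il6* had 0.663 and 1.502, then 0 and 0.501 (log2 -1.11, SE 1.01), and *Hbegf* had 5.88 and 10.7, then 7.41 and 2.97 (log2 -0.69, SE 0.66). The conditions did not overlap at *Vim*, *Ccl2* or *Il6*. *Sphk1* had the highest level of the list.

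Genes that mark the cell types of the cord were read in the same way, as chromatin coverage and not as expression, because nuclei of many types were used together, with the sort described above, and a different mix of nuclei cannot be told apart from different coverage per nucleus. Astrocyte markers were tested for 10 of 10 genes and had mean TSS levels of 6.42 and 6.26 in uninjured cord and 8.09 and 5.58 at 1 d.p.i., with *Aldoc* highest and a median log2 change of 0.08. Microglia and macrophage markers were tested for 8 of 8, with means of 1.37 and 1.77, then 2.02 and 2.107, *Tmem119* highest and a median of 0.38. In that list *Cx3cr1*, *Itgam*, *Spi1* and *Ptprc* were above in both 1 d.p.i. libraries and *P2ry12* below, from 10 to 30 fragments each. Oligodendrocyte markers had 8 of 8 tested, means of 14.9 and 23.6, then 21.1 and 14.0, and *Mbp* highest, and neuron markers had 7 of 7 tested, means of 5.02 and 7.68, then 6.75 and 4.08, and *Syt1* highest.

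Lists with fewer genes at measurable levels were those of OPCs (3 of 4 tested, *Olig2* highest, means of 7.82 and 7.39, then 7.84 and 4.90), ependymal cells (2 of 4, *Foxj1* highest, 2.95 and 6.42, then 4.63 and 3.16), endothelial and mural cells (5 of 6, *Pdgfrb* highest, 1.57 and 1.81, then 1.29 and 1.77) and neutrophils (3 of 6, *Elane* highest, 1.25 and 1.03, then 1.16 and 0.872). The neutrophil gene *S100a9* was at 0 in all 4 SOX9 libraries. Beside 7.23% of all TSS windows above and 14.9% below, the tested markers above and below numbered 4 and 1 of 8 for microglia and macrophages, 1 and 3 of 10 for astrocytes, 0 and 2 of 8 for oligodendrocytes, 0 and 1 of 7 for neurons, 1 and 1 of 3 for OPCs, 0 and 1 of 2 for ependymal cells, 1 and 2 of 5 for endothelial and mural cells and 1 and 1 of 3 for neutrophils. With limma 0 markers of any list passed and 0 had an unadjusted p under 0.05. The part that a different mix of cell types has in the levels of *Fos*, *Fosl1*, *Maff* and *Fosb* was not tested.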

How the data were processed

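SOX9 CUT&Tag was analysed from the deposited coverage of 8 libraries, a signal in whole fragments over each of 20283253 stretches, not scaled for depth. The authors mapped read pairs to mm10 with Bowtie2 2.5.4 and removed duplicates with Picard 3.4.0, and the step that wrote the coverage is not stated. A fragment was counted at each unit rise of coverage. Levels are the mean coverage of a window over that of the library.

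Protein-coding genes of GENCODE M21 on chromosomes 1–19 and X were used, with the TSS of the APPRIS principal transcript. limma 3.58.1 (R 4.3.3, with a mean-variance trend, two-sided) was fitted to log2(level + 0.5) of the 4 SOX9 libraries for all TSS windows, gene bodies, flanks and 1-kb tiles with at least 10 fragments, and was tested on simulated data. There it recovered most very large changes, but changes of 4 times were not recovered at TSS windows, nor at gene bodies when libraries varied more, so a count of 0 passed does not show that changes of that size were absent. False calls numbered 0 at TSS windows. At gene bodies, with 200 changed in each run, false calls numbered 28 for changes of 4 times and 16 for changes of 16 times. When libraries varied more they numbered 1 and 10. Python 3.11.15, numpy 2.4.6, pandas 2.3.3, samtools 1.23.1 and matplotlib 3.10.9 were used.

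All 10 members were named, with the highest tile outside the TSS window of each locus, the 5 tiles with the largest change over all loci, coding neighbours, and in each list the genes that passed or, where 0 did, the 2 largest changes in each direction. The members and lists were chosen with earlier results of these data known. The RefSeq starts, scaling by the median TSS window and *Fos* without its last exon were chosen after seeing the data. Alternatives covered scaling, pseudocount, filter, window and flank size, depth, all 8 libraries, sex as a block, the trend and each library left out.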

Additional observations from a re-analysis of the deposited data

Results flagged for a closer look

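At several AP-1 genes M moved one way between uninjured cord and 1 d.p.i. and F the other, as was common over the genome. Each sex had 1 library in a condition, so the difference was not tested, and sex, animal and library cannot be told apart. Each value below is the log2 change in F minus that in M. At TSS windows it was -2.01 for *Fosl2* (M 1.45, F -0.56), -1.12 for *Jund* (M 0.39, F -0.73), -0.50 for *Jun* (M 0.49, F -0.01), 1.61 for *Atf3* (M -1.48, F 0.13) and -2.48 for *Batf* (M 0.82, F -1.67), the last from 7 fragments. The value for *Atf3* turned to -1.64 at its RefSeq start (M 1.81, F 0.17), where both M and F were higher at 1 d.p.i. At gene bodies it was -1.13 for *Junb* (M 0.85, F -0.28), -1.05 for *Jund* (M 0.27, F -0.78), -0.65 for *Fosl1* (M 0.20, F -0.46), -0.58 for *Maff* (M 0.52, F -0.06) and -0.48 for *Batf* (M 0.36, F -0.13). M and F moved in opposite directions at 66.2% of all TSS windows tested and 58.6% of all gene bodies, and F was the lower in 88.7% and 63.8% of these. Over all TSS windows the median of F minus M was -1.06 (M 0.436, F -0.58), and over all gene bodies it was -0.175. With *Atf3* at its principal start, F was the lower in 9 of the 10 differences at AP-1 genes, as at most TSS windows. Uninjured F is also the deepest library with the highest TSS levels, and the part of that library in the differences was not tested.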

How the results depend on the processing

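The number of members that passed was 0 at TSS windows, gene bodies, flanks and tiles under every alternative that was run. The signs of *Fos*, *Fosl1*, *Maff* and *Fosb* at TSS windows held in all that were run for them, from 0.71 to 1.15, 0.80 to 1.23, 0.58 to 1.73 and -0.81 to -0.31, and with single libraries left out from 0.68 to 1.17, 0.59 to 1.65, 0.65 to 1.65 and -0.98 to -0.48. The sign of *Fosb* held, but its order did not: both injured libraries were no longer below both uninjured ones with windows of 0.5 kb, where *Atf3* was below instead, or of 2 kb, where *Batf* was. The causes of the differences below were not tested.

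Counts over the whole genome moved. Changed TSS windows numbered 2, and 0 with trimmed-mean scaling, no filter, at least 40 fragments, all 8 libraries or thinning to the smallest library, 1 with a pseudocount of 2, the start of the gene record or windows of 0.5 kb, and 11 over the median TSS window. Changed flanks numbered 4, and 0 with trimmed-mean scaling or all 8 libraries and 2 at 10 kb. Changed tiles numbered 47, and 9 with trimmed-mean scaling, 0 with a pseudocount of 0.1, no filter, all 8 libraries or no trend, 29 with at least 40 fragments and 3 with thinning. With sex as a replicate block, a pairing that M and F animals do not share, the counts were 1 for TSS windows, 245 for gene bodies (0 without the block), 0 for flanks and 15 for tiles, and the correlation of the M minus F deviations between conditions was -0.07 over TSS windows and -0.16 over gene bodies. With the block the p of *Fos* was 0.358 (adjusted p = 1, limma).

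With single libraries left out, in which case the lone library is assumed to vary like the others, the counts ranged from 0 to 0 for TSS windows, 0 to 234 for gene bodies, 0 to 49 for flanks and 0 to 143 for tiles. The members above in both 1 d.p.i. libraries numbered 5 over the median TSS window, beside 16.8% of all TSS windows. With libraries left out they numbered 3 without uninjured M (beside 10.3%), 6 without uninjured F (52.3%), 4 without M at 1 d.p.i. (16%) and 4 without F at 1 d.p.i. (21.4%). Those below numbered 2 with trimmed-mean scaling (beside 12.8%) or thinning (13.6%), and 4 (65%), 2 (19.6%), 3 (34.5%) and 2 (24.7%) with the same libraries left out in that order, so the background moved with them. High tiles in the loci numbered 144 at a level of 3 and 26 at 10 in uninjured cord (71 to 133 with libraries left out), and 153 and 30 at 1 d.p.i. (83 to 130).

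Signs turned for *Junb* with trimmed-mean scaling (-0.014) and for *Atf3* with the RefSeq start (0.99) or windows of 2 kb (0.43). With libraries left out the TSS windows ran from -0.14 to 1.03 at *Fosl2*, -0.082 to 0.56 at *Jun*, -0.26 to 0.33 at *Junb* and -0.53 to 0.19 at *Jund*, and the gene bodies from -0.34 to 0.081 at *Fosl1*, -0.15 to 0.73 at *Junb*, -0.58 to 0.067 at *Jund* and -0.022 to 0.25 at *Batf*. Without uninjured M the median of all TSS windows was -0.50 and without uninjured F it was 0.31, beside which these ranges stand. Depth limits *Batf* (7 fragments at its TSS) and *Atf3* (12) most.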

Other observations

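The TSS windows that passed across the genome were those of Gm11361 and Ftl1-ps1, both on chromosome 13. Gm11361 had SOX9 levels of 0 and 0.896 in uninjured cord and 5.71 and 15.6 at 1 d.p.i. (log2 3.58, adjusted p = 0.00946, limma), and Ftl1-ps1 had 0 and 2.85, then 5.70 and 23.7 (log2 3.24, adjusted p = 0.0137, limma). The controls held 30 and 7 fragments in these windows beside 45 and 57 SOX9 fragments, far above the 0.951 per 100 of whole libraries. Among AP-1 genes the last exon of *Fos* stood out in a like manner, with 14 control fragments beside 40 SOX9 fragments, or 35 per 100, whereas the whole *Batf* locus had 0 control fragments beside 300 SOX9 fragments.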
